A study of Homo sapiens with 15 samples.

Results

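The cell cycle and mitosis genes are a module of 44 protein-coding genes chosen by symbol for their roles in DNA replication, G1 control and division, out of 19684 genes in the deposited tables. All 44 were found by symbol. Poly(A) RNA of the BC1-GFP line, an established human induced pluripotent stem cell (hiPSC) line of genotype WT, was sequenced in 15 libraries, 3 in each of 5 groups. The groups were undifferentiated hiPSCs, neural retinas isolated from retinal organoids (ROs) at 70 days (D70-ROs) and at 150 days (D150-ROs) after induction, and induced Müller glial cells (iMGCs) grown in culture from the D150 organoids and taken on day 5 of passage 1 (P1 iMGCs) or of passage 5 (P5 iMGCs). Each organoid library pooled the retinas of 5 organoids, all groups share 1 line, and the labels name no drug or genetic change beyond the GFP of the line. The hiPSCs grew in mTeSR1 medium, and both the later organoids and the cultures in media with fetal bovine serum. The question for these genes was how far the division programme of the hiPSCs was still expressed in the organoids, and whether it came back when cells from the late organoids were expanded on plates.

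A dividing cell licenses its replication origins in G1, commits to S phase when cyclin D with CDK4 or CDK6, and then cyclin E with CDK2, phosphorylate the retinoblastoma protein RB1 and free the E2F factors, and enters mitosis through cyclin B with CDK1. E2F factors drive the replication genes, and the MuvB complex with MYBL2 and FOXM1 drives the mitotic genes through a promoter element called CHR. In the developing retina, progenitors cycle and their postmitotic daughters become neurons, and Müller glia are the last cells to leave the cycle. In adult mammals they rarely divide in place, but they can grow in culture. The members were described by role in 4 classes, which are markers of cycling cells (3 genes), replication (13 genes), G1 control (11 genes) and mitosis (17 genes).

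Depth ranged from 11349600 expected counts per library, in D70-RO replicate 2, to 20398755 in hiPSC replicate 3. The hiPSC marker list (5 genes) summed to between 3161 and 3344 FPKM (fragments per kilobase of transcript, scaled to the mapped reads of a library) in the hiPSCs and to less than 9 in every other library. The progenitor list (6 genes) summed to between 608 and 751 FPKM in D70-ROs and between 298 and 305.5 in D150-ROs, and the photoreceptor list (5 genes) to between 675 and 681 in D150-ROs. The cultures carry the label of Müller glia, but the defining marker RLBP1 was at most 0.09 FPKM in their 6 libraries and the transporter SLC1A3 at most 1.23, while VIM was between 2141 and 2901, GLUL (glutamine synthetase) between 12.25 and 15.22 and SOX9 between 3.47 and 5.48. All 5 genes of the fibroblast list were at or above 1 FPKM in every culture library, and the list summed to between 2243 and 2780 FPKM there against at most 23.79 in the organoids. D70-RO replicate 2 stood apart by gene length: its genes of the top length quartile were 0.25 lower on the log2 scale than in the other 2 D70 libraries. The members' median difference was -0.15, beside -0.07 over all genes, and 29 of the 44 members were lower. That count was not particular to this library, with 34 in hiPSC replicate 1, 36 in D150-RO replicate 1 and 37 in P1 replicate 2. In bulk RNA, fewer dividing cells and less RNA of these genes per cell cannot be told apart.

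The sequences just upstream of the members show the letters by which the replication and mitotic classes are usually told apart. Of the 44 members, 34 had an entry in the RefSeq promoter table (GRCh38.p14, 250 bases before to 50 after a gene's start). The letters of the CHR element, TTTGAA, were searched on both strands, and those of the E2F site were searched as TTTCCCGC, TTTGGCGC, TTTGCCGC or TTTCGCGC, also on both strands. CHR letters were in 8 of the 13 mitotic members with an entry (61.5%) and in 1 of 11 replication members (9.09%), against 18.2% of all 27305 genes with an entry, counting a gene with a match in any of its promoters as for the members. E2F letters were in 8 of the 11 replication members (72.7%) and in 2 of the 13 mitotic ones (15.4%), against 3.99% of all genes with an entry. Both were found in 2 members (CDK1 and CENPA) and neither in 12. A match is a description of letters, not evidence of binding. Promoters of 4 genes with CHR letters are shown first and of 4 genes with E2F letters after them, each as the 100 bases before the start, 5′ to 3′ on the gene's strand, with the matched letters in capitals (overlapping matches run together).
CCNB2, chr15:59105046-59105145, plus strand: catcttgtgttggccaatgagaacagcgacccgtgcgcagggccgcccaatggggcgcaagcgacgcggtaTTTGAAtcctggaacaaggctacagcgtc
PLK1, chr16:23678789-23678888, plus strand: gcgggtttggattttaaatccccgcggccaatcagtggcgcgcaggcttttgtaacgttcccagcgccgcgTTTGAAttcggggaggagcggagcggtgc
CDC20, chr1:43358881-43358980, plus strand: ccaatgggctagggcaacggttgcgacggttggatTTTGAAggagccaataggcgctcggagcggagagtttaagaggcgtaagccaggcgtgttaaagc
MKI67, chr10:128126424-128126523, minus strand: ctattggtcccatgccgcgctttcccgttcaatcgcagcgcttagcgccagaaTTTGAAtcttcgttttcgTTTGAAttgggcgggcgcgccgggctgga
MCM6, chr2:135876444-135876543, minus strand: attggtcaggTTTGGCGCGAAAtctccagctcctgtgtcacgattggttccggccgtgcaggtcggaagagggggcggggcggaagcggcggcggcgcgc
GINS2, chr16:85688955-85689054, minus strand: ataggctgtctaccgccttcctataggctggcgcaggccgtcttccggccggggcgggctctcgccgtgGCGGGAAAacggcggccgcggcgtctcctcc
E2F1, chr20:33686386-33686485, minus strand: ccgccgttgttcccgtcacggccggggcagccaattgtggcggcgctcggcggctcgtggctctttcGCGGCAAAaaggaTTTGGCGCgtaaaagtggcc
E2F2, chr1:23531234-23531333, minus strand: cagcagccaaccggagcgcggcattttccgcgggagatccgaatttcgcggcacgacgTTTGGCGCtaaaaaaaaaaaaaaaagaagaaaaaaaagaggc
In CCNB2 and PLK1 the CHR letters began 29 bases before the annotated start, and MKI67 held them at 47 and at 29 bases. These promoters are taken up again where the cultures are compared with the D150-ROs.

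The module was highest in the hiPSCs and fell with each organoid stage. Summed over the 44 members, FPKM was 3149 ± 124.9 (SD, n = 3) in hiPSCs and 1204 ± 61.7 in D70-ROs. It was 487 ± 28.32 in D150-ROs, 477.8 ± 27.08 at P1 and 448.6 ± 14.03 at P5. The last 3 groups had similar sums that were made up differently. The replication class summed to 187.6 FPKM in D150-ROs and to 89.82 and 76.98 in P1 and P5 iMGCs, whereas the G1 class summed to 157.5 FPKM in D150-ROs and to 247.3 and 254 in the cultures. The mitotic class summed to 75.78 FPKM in D150-ROs, 90.21 at P1 and 74.7 at P5, with library ranges that overlapped. By mean FPKM, 35 members were highest in hiPSCs, 6 in D70-ROs, 2 in D150-ROs and 1 in P1 iMGCs. On TMM-scaled CPM 38 were highest in hiPSCs, and the full order of the 5 groups was the same on both scales for only 16 members.

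**Figure D1:**
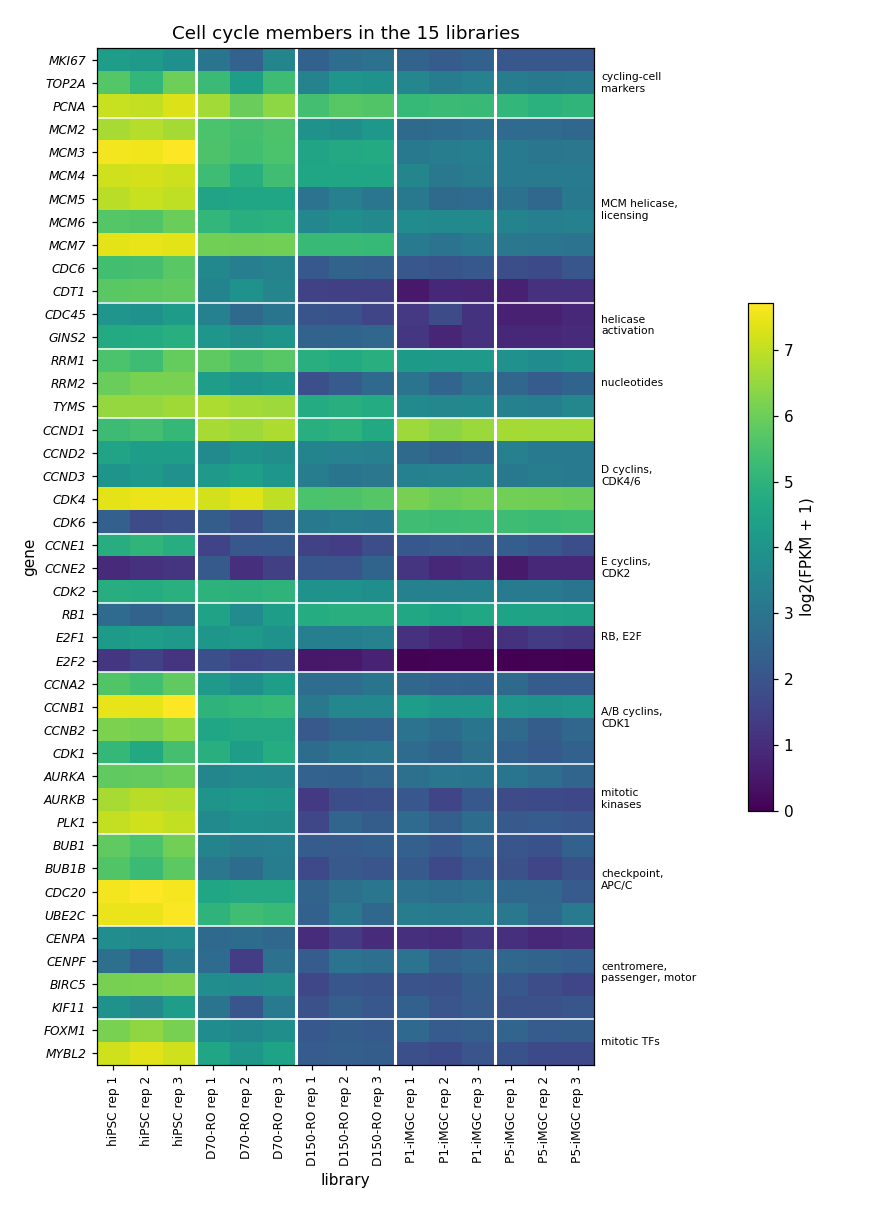
Level of each of the 44 members (rows, by role) in each of the 15 libraries (columns, by group), with the colour scale labelled in the picture. The hiPSC libraries hold the highest level of most members, and the rows that depart from this are mainly in G1 control, CDK6 and RB1 among them.

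Compared with hiPSCs, D70-ROs had 27 of the 44 members lower and 3 higher at an edgeR adjusted p under 0.05 and a fold of at least 2. Over all 12954 genes tested, 21.1% were lower and 22.5% higher by the same rule. The median log2 fold change of the members was -1.39, beside 0.02 over all genes. The fall was uneven by role: 15 of 17 mitotic and 10 of 13 replication members were lower, but of the 11 G1 members 1 was lower and 3 were higher. Only CCNE2 passed the filter on low values through 1 group alone, the D70-ROs, which favoured a rise.

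CCNB1, the cyclin that drives entry into mitosis, was 174, 172 and 210 FPKM in the hiPSC libraries and 31.5, 33.8 and 34.9 in the D70-ROs, without overlap. Its log2 fold change was -2.58 ± 0.13 (SE; edgeR adjusted p = 1.46e-08). Other mitotic members moved alike, with PLK1 (mitotic kinase) at -3.52, CDC20 (activator of the anaphase-promoting complex) at -3.20 and MYBL2 (transcription factor of the MuvB complex) at -3.06. FOXM1, the transcription factor of G2 and mitotic genes, was 71.4, 86.1 and 69.6 FPKM in hiPSCs against 12.4, 11.3 and 13.3 in D70-ROs (log2 fold change -2.74 ± 0.13 SE, edgeR adjusted p = 1.21e-08). CDK1, the partner of CCNB1, did not follow: it was 34.2, 24.8 and 42.7 FPKM in hiPSCs against 28.5, 18.6 and 26.5 in D70-ROs, which overlapped. The log2 fold change of CDK1 was -0.60 ± 0.19 (SE) and was not called.

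Replication members had a median log2 fold change of -1.57, beside -2.58 for the mitotic ones. MCM2, a subunit of the replicative helicase, was 104, 115 and 101 FPKM in hiPSCs against 45.0, 42.8 and 46.3 in D70-ROs (log2 fold change -1.37 ± 0.11 SE, edgeR adjusted p = 5.23e-07). MCM6, another subunit of the same ring, had a log2 fold change of -0.95 and was not called, and RRM1 (large subunit of ribonucleotide reductase) and TYMS (thymidylate synthase) differed by -0.03 and 0.01. RRM2, the small subunit of the same reductase, fell by 2.00 on the log2 scale. The reductase subunits thus parted between these stages.

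Among the markers of cycling cells, MKI67, the gene of the Ki-67 antigen, was 18.6, 17.2 and 13.6 FPKM in hiPSCs against 6.98, 4.42 and 10.4 in D70-ROs. The groups did not overlap, and the log2 fold change was -1.34 ± 0.24 (SE, edgeR adjusted p = 0.000424). PCNA, the sliding clamp of DNA polymerase, was 135, 129 and 157 FPKM in hiPSCs against 99.3, 60.5 and 83.7 in D70-ROs, with a log2 fold change of -0.93 ± 0.16 (SE), under the 2-fold limit. TOP2A, the topoisomerase of S phase and mitosis, had -0.78 and was not called.

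The largest fall and the largest rise of this comparison were both in G1 control. CCNE1, the main E-type cyclin, was 26.9, 32.1 and 26.9 FPKM in hiPSCs against 1.93, 3.32 and 3.34 in D70-ROs, a log2 fold change of -3.59 ± 0.18 (SE, edgeR adjusted p = 2.01e-08). RB1, the brake on E2F, was 5.43, 4.44 and 5.41 FPKM in hiPSCs against 20.9, 12.1 and 19.2 in D70-ROs, a log2 fold change of 1.63 ± 0.18 (SE, edgeR adjusted p = 9.06e-06). The hiPSCs thus had high CCNE1 and low RB1, and D70-ROs the reverse. CCND1, the most abundant D-type cyclin, was 38.2, 42.0 and 34.3 FPKM in hiPSCs against 104, 94.9 and 108 in D70-ROs (log2 fold change 1.28 ± 0.12 SE, edgeR adjusted p = 1.72e-06). CCNE2, the second E-type cyclin, was called higher at 1.35, but its D70 libraries were 3.51, 1.12 and 1.76 FPKM and the call was lost without replicate 1. E2F1 had a log2 fold change of -0.30 ± 0.14 (SE), and CDK4 and CDK6, the kinases of the D-type cyclins, had -0.37 and 0.55. None of these 3 was called.

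Between day 70 and day 150 the module fell again. Of the 44 members, 34 were lower at day 150 than at day 70 and 0 were higher, against 16.7% lower and 16.6% higher among 12855 genes. By an unadjusted p under 0.05, 41 of the 44 differed in either direction, as did 9754 of all 12855 genes. The 0 was also the count by DESeq2, and limma on log2(FPKM + 0.1) gave 1 (CDK6). E2F2 and CENPA passed the filter through the D70-ROs only, so that they had to be lower. The members' median log2 fold change was -1.64, beside -0.01 over all genes. For 24 members this was the second called fall in a row (54.5%), as it was for 3.78% of the 12251 genes tested in both comparisons. Another 9, not called between hiPSCs and D70-ROs, were called here: TOP2A, MCM6, RRM1, TYMS, CCND3, CDK4, CDK2, E2F2 and CDK1. Of the exon bases of CDK2, 16.8% are shared with PMEL and AC025162.1 on the other strand. PMEL was between 119 and 137 FPKM in hiPSCs, between 79.9 and 130 in D70-ROs and at most 1.31 in D150-ROs and the cultures. Its part in the values of CDK2 was not tested.

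AURKB, the kinase of the chromosomal passenger complex, had the largest fall, from 14.87, 16.31 and 15.99 FPKM in D70-ROs to 1.49, 2.59 and 2.70 in D150-ROs (log2 fold change -2.97 ± 0.23 SE, edgeR adjusted p = 6.21e-06). CCNB1 fell to 7.61, 10.9 and 11.1 FPKM (-2.01 ± 0.14 SE, edgeR adjusted p = 3.02e-06). FOXM1 fell to 3.40, 3.83 and 3.56 FPKM (-1.99 ± 0.11 SE, edgeR adjusted p = 9.26e-07). CDK1, which had not been called at the earlier step, now fell with its cyclin, to 5.61, 6.93 and 7.19 FPKM (-2.12 ± 0.17 SE, edgeR adjusted p = 6.05e-06). In replication, MCM2 fell to 14.5, 13.4 and 16.4 FPKM (-1.84 ± 0.10 SE, edgeR adjusted p = 7.43e-07). TYMS fell from between 96.01 and 107.59 FPKM to between 25.8 and 28.1, although 46.6% of its exon bases are shared with ENOSF1 and TYMSOS on the other strand and the strand of counting is not given in the sources used here.

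CCND1 and CCND3, both D-type cyclins, fell over the same interval. CCND1 was 28.1, 30.5 and 24.6 FPKM in D150-ROs, lower than in D70-ROs by a log2 fold change of -2.11 ± 0.10 (SE, edgeR adjusted p = 5.05e-07). CCND3 went from 17.1, 19.7 and 15.7 FPKM to 8.42, 7.03 and 7.43 (-1.42 ± 0.14 SE, edgeR adjusted p = 2.80e-05). MKI67 at 4.31, 5.71 and 6.58 FPKM overlapped with the D70 libraries and had -0.61 ± 0.27 (SE, edgeR adjusted p = 0.0650). MKI67 is longer than 99.4% of genes, and with the length trend removed it had -1.68 and was called lower. RB1 and CDK6 had 0.42 ± 0.16 and 0.92 ± 0.15 (SE), under the 2-fold limit.

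Against hiPSCs, 39 of the 44 members were lower in D150-ROs and 3 were higher, where 29% of 13344 genes were lower and 29.8% higher. The median was -3.11 for the members and -0.02 for all genes. AURKB fell by 5.96 on the log2 scale (± 0.18 SE, edgeR adjusted p = 2.24e-11). UBE2C, the ubiquitin-conjugating enzyme of the anaphase-promoting complex, had a log2 fold change of -5.44 and BIRC5 (survivin, of the chromosomal passenger complex) one of -5.07. E2F1 fell by 1.28 (± 0.10 SE, edgeR adjusted p = 1.43e-07), from 17.4, 19.0 and 16.7 FPKM to 9.10, 9.12 and 9.80. The higher members were RB1 (2.05 ± 0.10 SE, edgeR adjusted p = 1.08e-09), CCNE2 (1.54) and CDK6. CCNE2 was 0.88 FPKM in hiPSC replicate 1 and passed the filter through the D150-ROs only, which favoured a rise. E2F2 and CENPA passed through the hiPSCs only, so that they had to be lower. Of the exon bases of CCNE2, 37.1% are shared with INTS8 and AC087752.4 on the other strand. CDK6 was 4.11, 2.37 and 2.70 FPKM in hiPSCs against 7.73, 8.71 and 8.12 in D150-ROs, a log2 fold change of 1.47 ± 0.14 (SE, edgeR adjusted p = 5.18e-07).

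Gene length moved with this comparison. The median log2 fold change was -0.83 in the quartile of the shortest genes and 0.86 in that of the longest, and CDK6 is longer than 99.1% of genes. With the length trend removed, CDK6 had -0.10 and its call was lost, and CCND1 and CENPF (kinetochore protein) were called lower. RB1 kept 1.39 and stayed called.

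**Figure D2:**
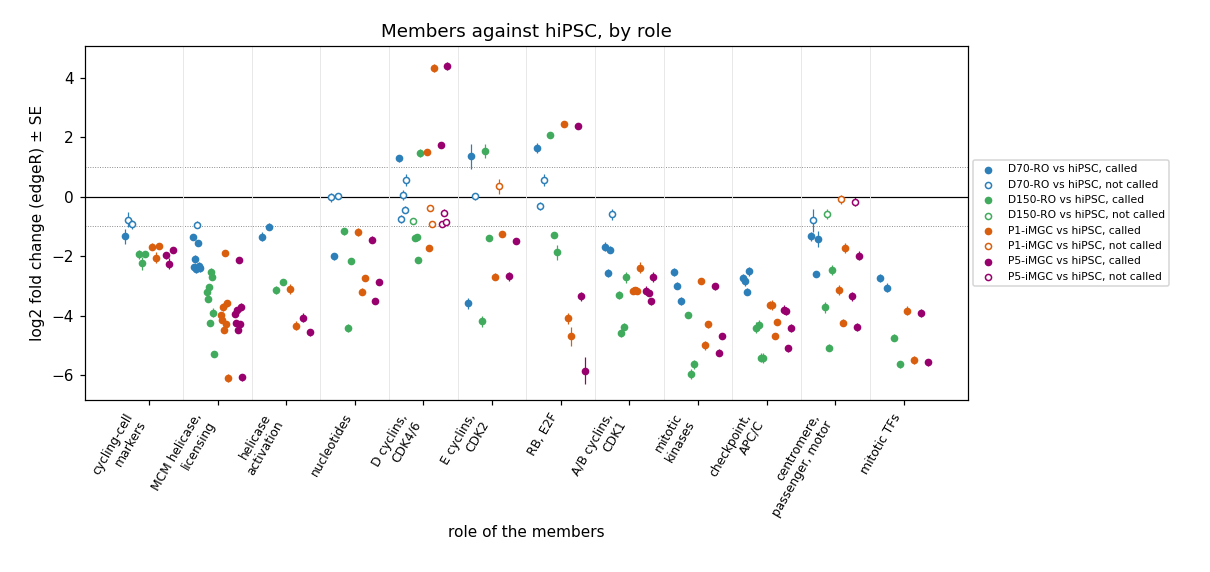
log2 fold change against hiPSCs (edgeR, with SE bars) of the members, by role, in each of the 4 later groups (colours); filled points were called. Most points lie below 0, and CDK6, RB1 and CCND1 lie above it in the cultures.

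The cultures were compared with hiPSCs, the group in which most members were highest. Of the 44 members, 37 were lower in P1 iMGCs and 3 higher, against 29.7% lower and 26.1% higher among 12666 genes. In P5 iMGCs 43 members passed the filter, of which 36 were lower and 3 higher, against 29.3% lower and 26.9% higher among 12699 genes. Medians of the members were -3.15 and -3.36, beside -0.08 and -0.07 over all genes. In each comparison 5 members passed the filter through 1 group only, the hiPSCs, so that they had to be lower in the cultures. At P1 these were CDT1, GINS2, E2F1, E2F2 and CENPA, and at P5 CDC45 stood in place of E2F1. The hiPSC libraries and the D70 and D150 libraries are in 1 table and the culture libraries in another, and submitters' notes name 2 companies and a batch correction without saying which libraries they concern, so batch and group cannot be told apart here.

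All 13 replication members and 16 of the 17 mitotic members were lower than in hiPSCs in both passages. CDT1, which loads the MCM helicase, fell most, from 53.1, 53.2 and 56.6 FPKM to 0.44, 0.86 and 0.77 at P1 and 0.65, 1.16 and 1.14 at P5 (log2 fold change -6.10 ± 0.15 and -6.07 ± 0.12 SE, edgeR adjusted p = 1.52e-11 and 5.73e-13). CDT1 passed the filter through the hiPSCs only, and at P1 it failed the filter without any 1 hiPSC library. With no filter both calls were kept. MCM2 was 5.42, 5.64 and 6.03 FPKM at P1 and 5.45, 5.44 and 4.99 at P5, a level 15.8-fold and 15.6-fold below that of hiPSCs by edgeR. CCNB1 was 19.2, 15.8 and 16.1 FPKM at P1 and 15.2, 14.5 and 15.7 at P5, which is 8.77-fold and 9.55-fold below. FOXM1 (-3.83 and -3.92) and MKI67 (-1.69 and -1.97) were lower as well. In all, 27 members were called lower than in hiPSCs in each of the 4 later groups, or 62.8% of the 43 tested in all of them, against 13.1% of 12180 genes. The 4 comparisons share the hiPSC libraries. Beside those described, they include MCM4 and MCM5 (helicase subunits, at least 121 FPKM in every hiPSC library and at most 10.7 in every culture library), CDC6 (which loads the helicase with CDT1), CCNA2 (cyclin of S phase and G2), BUB1 and BUB1B (spindle checkpoint kinases), CENPA (centromeric histone) and KIF11 (spindle motor). CCNA2 was between 40.6 and 56.5 FPKM in hiPSCs and between 3.61 and 5.32 in the cultures. BUB1 was between 44.9 and 66.6 FPKM in hiPSCs and between 2.83 and 4.34 in the cultures. These ranges did not overlap. KIF11 was between 11.4 and 18.5 FPKM in hiPSCs and between 2.79 and 4.23 in the cultures, and CENPA fell to between 0.80 and 1.33.

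The members higher than in hiPSCs were CCND1, CDK6 and RB1 in both passages. CDK6 was 39.8, 38.0 and 38.7 FPKM at P1 and 39.0, 37.8 and 39.0 at P5, where no hiPSC library exceeded 4.11. Its log2 fold changes were 4.33 ± 0.14 and 4.39 ± 0.13 (SE, edgeR adjusted p = 9.88e-11 and 1.35e-11), and 3.01 and 3.05 with the length trend removed. CCND1 was 94.5, 81.5 and 94.0 FPKM at P1 and 102, 99.2 and 99.5 at P5 (1.51 ± 0.10 and 1.73 ± 0.10 SE, edgeR adjusted p = 3.50e-08 and 2.82e-09). RB1 was 23.5, 21.2 and 23.9 FPKM at P1 and 21.3, 20.8 and 20.3 at P5 (2.44 ± 0.10 and 2.37 ± 0.10 SE, edgeR adjusted p = 8.04e-10 and 1.60e-10). RB1 was the 1 member higher than in hiPSCs in all 4 later groups.

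E2F1 and E2F2, the activating E2F factors among the members, were far below hiPSCs in the cultures. E2F3, an activating factor that is not a member, was between 12.72 and 14.16 FPKM in hiPSCs and between 7.27 and 8.13 in the cultures. In the organoids E2F3 was between 4.57 and 7.28 FPKM. E2F1 was 1.15, 0.85 and 0.59 FPKM at P1 and 1.20, 1.58 and 1.32 at P5 (-4.09 ± 0.18 and -3.35 ± 0.14 SE, edgeR adjusted p = 1.31e-09 and 3.08e-10). E2F2 had 456 expected counts in the hiPSC libraries together, 630 in D70-ROs, 131 in D150-ROs, 12 in P1 iMGCs and 5 in P5 iMGCs. The log2 ratio of the summed counts against hiPSCs was -5.00 at P1 (exact 95% interval -5.97 to -4.18) and -6.26 at P5 (-7.89 to -5.03), which covers counting error only. CENPF, the kinetochore protein, was between 3.99 and 7.95 FPKM in hiPSCs, between 4.11 and 6.60 at P1 and between 3.91 and 4.83 at P5, and it was called in none of the 10 comparisons. It is longer than 97.2% of genes, and with the length trend removed it was called lower than hiPSCs in all 4 later groups.

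CCND2, another D-type cyclin, was 21.8, 19.2 and 19.3 FPKM in hiPSCs and between 9.37 and 10.2 in D150-ROs (log2 fold change -1.40 ± 0.09 SE, edgeR adjusted p = 1.57e-08). At P1 it was 5.32, 4.51 and 5.16 FPKM (-1.73 ± 0.09 SE, edgeR adjusted p = 7.58e-09), and at P5 it missed the 2-fold limit at -0.91 ± 0.09 (SE). CCND3 had -1.37 ± 0.12 (SE, edgeR adjusted p = 3.12e-07) in D150-ROs and was not called in the cultures (-0.38 ± 0.11 and -0.55 ± 0.12 SE).

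The make-up of paralog pairs differed between the groups. CCND1 made up 50.9% to 53.9% of the summed FPKM of the 3 D-type cyclins in hiPSCs, 73.6% to 79.0% in D70-ROs, 59.4% to 64.5% in D150-ROs and 85.2% to 86.4% in the cultures. CDK6 made up 1.31% to 2.37% of the FPKM of CDK4 and CDK6 together in hiPSCs, 13.9% to 15.8% in D150-ROs and 36.6% to 38.4% in the cultures. CDK4 itself was between 169 and 179 FPKM in hiPSCs against between 62.5 and 68.9 in the cultures, with log2 fold changes that edgeR did not call. On log2(FPKM + 1) it was called lower at both passages (-1.40 and -1.43), as it was at P1 without any 1 hiPSC library and at P5 without hiPSC replicate 1 or 3. Of its exon bases 43.2% are shared with TSPAN31.

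**Figure D3:**
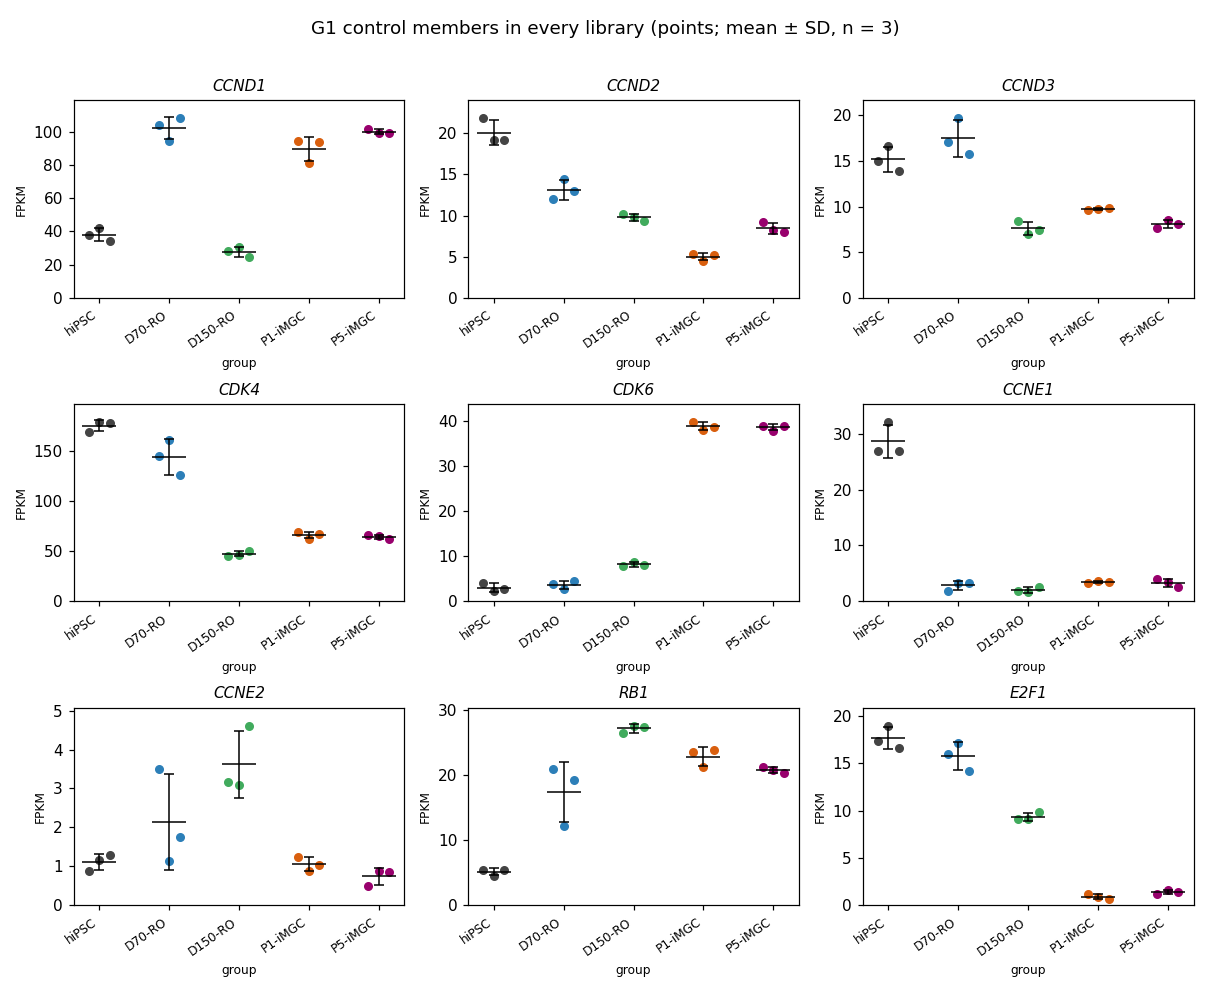
FPKM of G1 control members in every library (points) with the group mean and SD (n = 3 each). CDK6 sits between 37.8 and 39.8 in the 6 culture libraries and at or below 8.71 in all others, and E2F1 is at or below 1.58 in the cultures.

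Compared with D70-ROs, the cultures were lower in most members. At P1, 26 of 44 were lower and 1 higher, against 24.4% and 20.8% of 12673 genes. At P5, 31 of 44 were lower and 1 higher, against 24.6% and 21% of 12696 genes. The medians were -1.24 and -1.48, beside -0.10 and -0.09 over all genes, and the higher member was CDK6 in both (3.80 ± 0.15 and 3.85 ± 0.15 SE, edgeR adjusted p = 5.52e-08 and 3.16e-08). The largest falls were in E2F2 (fitted -5.24 ± 0.25 and -6.40 ± 0.43 SE, edgeR adjusted p = 1.65e-07 and 9.53e-07), which rest on the few culture counts given above. E2F2 passed the filter through the D70-ROs only, so that it had to differ. CDT1, GINS2, CCNE2 and CENPA at both passages, E2F1 at P1 and CDC45 at P5 also passed through the D70-ROs only. All of these but CCNE2 at P1 are among the members counted as lower. CCND1 did not differ by 2-fold (0.25 ± 0.08 and 0.46 ± 0.07 SE), and on the FPKM scale its sign turned to -0.19 and -0.03. CCNB1 was lower by less than 2-fold, at -0.54 ± 0.10 and -0.67 ± 0.10 (SE). MCM2 was lower at -2.60 ± 0.08 and -2.59 ± 0.08 (SE, edgeR adjusted p = 1.11e-08 and 1.04e-08).

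The comparison of the cultures with their source, the D150-ROs, had members in both directions. At P1, 43 members passed the filter, 10 were higher and 4 lower, against 20% higher and 24.1% lower among 12896 genes. At P5, 42 passed, 6 were higher and 4 lower, against 20.8% higher and 23.9% lower among 12933 genes. These shares of members are near or below the background. The medians were 0.39 and 0.30, beside -0.05 over all genes in both. At each passage 4 members passed the filter through 1 group only, the D150-ROs. They were CDT1, GINS2 and CCNE2 at both, with E2F1 at P1 and CDC45 at P5. By edgeR the mitotic median was 0.77 at P1 and 0.63 at P5, the G1 median 0.70 and 0.65, and the replication median -0.57 and -0.75.

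These counts depend on the scale. On log2(FPKM + 1) tested with limma, 2 members were higher and 8 lower at P1, and 2 were higher and 9 lower at P5. On that scale the median of all genes lay 0.55 lower at P1 and 0.60 lower at P5 than in the edgeR fit. The mitotic median was then 0.09 and -0.09 and the G1 median 0.04 and -0.06, so that neither had a direction that held on both scales at P5, while the replication median stayed negative (-0.73 and -1.08). Of the tested members 13 turned sign at P1 and 13 at P5, CCNA2 and MYBL2 at both. CCNA2 was between 5.81 and 7.03 FPKM in D150-ROs and between 4.22 and 4.81 at P1, and MYBL2 between 3.73 and 4.07 and between 2.34 and 3.13. CCND1 and CDK6 were called higher, and MCM7, GINS2, CCNE2 and E2F1 lower, at P1 under both. The libraries also mattered: without D150-RO replicate 1, in which 36 of the 44 members were lower than in the other 2 libraries, 6 members were higher at P1. In that replicate the median log2 difference from the other 2 was -0.19 for the members and -0.01 over all genes.

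CDK6 rose most, from at most 8.71 FPKM in D150-ROs to at least 37.8 (2.87 ± 0.05 and 2.92 ± 0.05 SE, edgeR adjusted p = 6.94e-17 and 2.52e-17). CCND1 rose from between 24.6 and 30.5 FPKM to between 81.5 and 102 (2.34 ± 0.07 and 2.55 ± 0.07 SE, edgeR adjusted p = 6.92e-14 and 2.46e-15). CCNE1 rose from 1.82, 1.67 and 2.57 FPKM to 3.36, 3.65 and 3.44 at P1 and 3.91, 3.39 and 2.58 at P5 (1.51 ± 0.20 and 1.502 ± 0.23 SE, edgeR adjusted p = 3.73e-06 and 1.23e-05), a call that the FPKM scale lost. CCND3 missed the 2-fold limit at 1.00 ± 0.10 and 0.82 ± 0.10 (SE). CDK4 was called higher by edgeR (1.23 and 1.28) and not on the FPKM scale. CCNE2 was lower (-1.18 and -1.49), but it was 0.48, 0.87 and 0.86 FPKM at P5 and passed the filter at both passages through the D150-ROs only, so that it had to differ. At P5 it failed the filter without any 1 of the D150 libraries, and with no filter it was called at -1.47. E2F1 had the largest fall, from 9.10, 9.12 and 9.80 FPKM to at most 1.58 (-2.81 ± 0.17 and -2.08 ± 0.13 SE, edgeR adjusted p = 2.01e-10 and 2.73e-10). At P1 E2F1 was 1.15, 0.85 and 0.59 FPKM and passed the filter through the D150-ROs only, so that it too had to differ there. At P5 it passed in both groups, and with no filter both calls were kept.

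CCNB1 was the mitotic member with the largest rise, 1.46 ± 0.11 and 1.32 ± 0.11 (SE, edgeR adjusted p = 5.47e-09 and 9.91e-09), from between 7.61 and 11.1 FPKM to between 14.5 and 19.2. On log2(FPKM + 1) the difference was 0.75 and 0.59, and the call was lost at both passages. CCNB2 (1.20), AURKA (spindle pole kinase, 1.15), PLK1 (1.35) and RRM2 (1.22) were called higher at P1 and not at P5. All 4 calls were lost on the FPKM scale, where the differences were 0.53, 0.51, 0.45 and 0.56, and those of CCNB2, AURKA and RRM2 also without D150-RO replicate 1. UBE2C was called at both passages (1.24 and 1.02), but with the length trend removed it had 0.76 and 0.51 and was called at neither. FOXM1 had 0.91 ± 0.13 and 0.81 ± 0.12 (SE), under the 2-fold limit. CDK1, the partner of CCNB1, had 0.33 ± 0.13 and -0.01 ± 0.13 (SE) and was 5.45, 4.63 and 6.20 FPKM at P1 against 5.61, 6.93 and 7.19 in D150-ROs.

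In replication, MCM7 fell from 36.6, 36.8 and 34.9 FPKM to 7.94, 6.60 and 7.86 at P1 and 7.30, 7.22 and 6.69 at P5 (-1.60 and -1.59). GINS2, of the GINS complex that activates the helicase, fell by 1.46 and 1.69 on the log2 scale. At P5 it was 0.82, 0.87 and 0.94 FPKM against between 4.50 and 4.88 in D150-ROs, and it too passed the filter at both passages through the D150-ROs only. At P5 it failed the filter without any 1 of them, and with no filter it was called at -1.68. MCM2 (-0.77 ± 0.08 at P1 and -0.77 ± 0.09 SE at P5) and MCM3 (-0.68 and -0.83) were under the 2-fold limit, while MCM6 had 0.64 and 0.38. The MCM subunits act as 1 ring, and on the FPKM scale the group means of MCM6 were 11.9 in D150-ROs and 11.8 at P1, so its sign rests on the scaling. MKI67 (0.26 ± 0.11 and -0.04 ± 0.11 SE) and PCNA (0.27 ± 0.08 and 0.11 ± 0.08 SE) were not called, and at P1 both turned negative on the FPKM scale (-0.32 and -0.36), as did PCNA at P5 (-0.56).

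**Figure D4:**
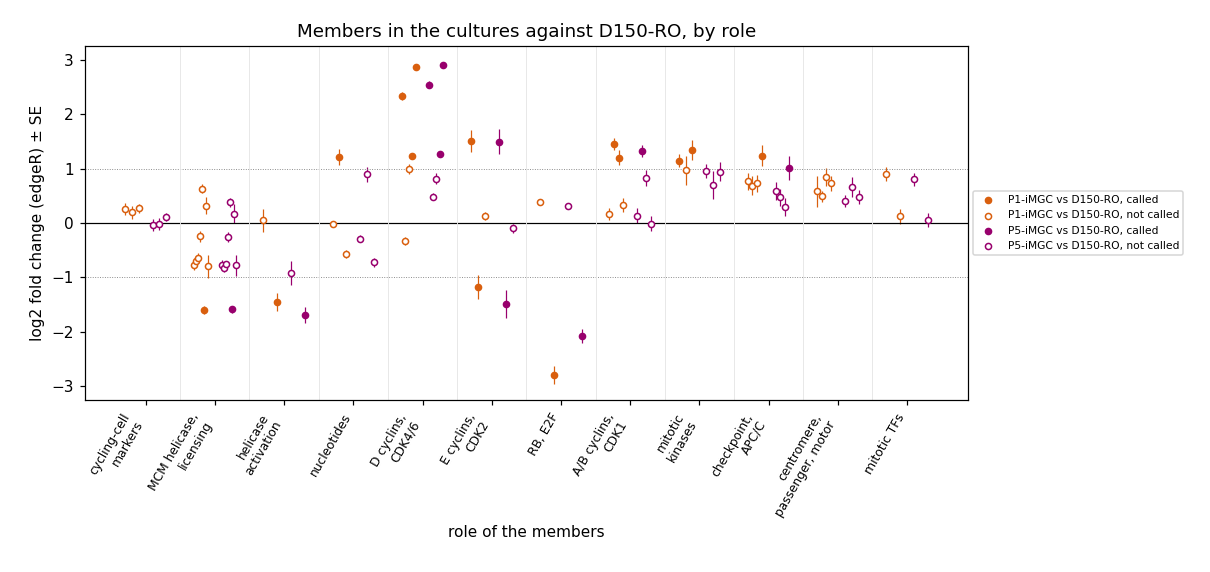
log2 fold change of the members in P1 iMGCs (orange) and P5 iMGCs (purple) against D150-ROs, by role, with SE bars; filled points were called and dotted lines mark 2-fold. The D-type cyclins and their kinases reach 2.92, the mitotic roles lie mostly between 0 and 1.46, and the called falls are those of MCM7, GINS2, CCNE2 and E2F1. On log2(FPKM + 1) the mitotic median is 0.09 at P1 and turns to -0.09 at P5.

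The same comparison was then read by promoter letters. By edgeR the 9 members with CHR letters alone had a median log2 fold change of 0.69 at P1 and 0.40 at P5 against D150-ROs, and the 10 tested members with E2F letters alone had -0.74 and -0.77. Of those 10, CDT1 and GINS2 at both passages and E2F1 at P1 passed the filter through the D150-ROs only, so that they had to be lower. By mean FPKM, CCNB2 was the only one of those 9 that was higher at P5 than in D150-ROs (4.66 against 4.15). MKI67, TOP2A, RRM1 and CENPF were lower at P1 as well. The rise of the CHR members at P5 thus rests on the scaling. Members with E2F letters alone were lower by mean FPKM at both passages. By edgeR those tested ran from -2.81 to 0.64 at P1 and from -2.08 to 0.38 at P5. PCNA, MCM6 and CDC6 were positive by edgeR at both, so their sign also rests on the scaling. Against hiPSCs the medians at P1 were -2.05 for CHR alone and -4.09 for E2F alone, where D70-ROs had -1.42 and -1.02. At P1 the E2F members CDT1, GINS2, E2F1 and E2F2 passed the filter through the hiPSCs only. The letters largely follow the classes, so they add a description and not a second measurement. Beside the comparison with D150-ROs, 5 of 5 fibroblast genes were at 1 FPKM or more in every culture library, 5 of 5 photoreceptor genes were under 1 FPKM in all of them, and the fibroblast list summed to at least 2243 FPKM against between 20.5 and 23.8 in D150-ROs. COL1A1 made up most of the culture sums, at between 1946 and 2352 FPKM, and PDGFRB was already between 14.6 and 17.4 FPKM in D150-ROs. What these marker differences stand for in cell types, and their part in the members' values, was not tested.

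Between P5 and P1 iMGCs, 0 of the 40 members that passed the filter were called in either direction, where 1.94% of 11366 genes were higher and 0.977% lower. At an unadjusted p under 0.05 in edgeR, 16 of the 40 differed, and 4477 of all genes. DESeq2 also called 0, and limma on log2(FPKM + 0.1) called 1 (CDC45, lower). The members' median was -0.16, with 32 of 40 negative, beside 0.00 over all genes. All 17 mitotic members were lower at P5 in sign, by at most 0.43 on the log2 scale. MKI67 was 4.48, 3.73 and 4.31 FPKM at P1 and 3.27, 3.29 and 3.24 at P5, without overlap (-0.29 ± 0.06 SE, edgeR adjusted p = 0.000982, under the 2-fold limit). CCND2, the D-type cyclin with the largest difference, was between 4.51 and 5.32 FPKM at P1 and 9.18, 8.22 and 7.96 at P5 (0.82 ± 0.07 SE, edgeR adjusted p = 4.16e-10). CDC45, a cofactor of the helicase, was 1.45, 2.49 and 1.21 FPKM at P1 and 0.63, 0.62 and 0.87 at P5 (-0.96 ± 0.26 SE, edgeR adjusted p = 0.00569). E2F1 had 0.74 ± 0.23 (SE, edgeR adjusted p = 0.0183).

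A further 71 cell cycle genes that are not members (without inhibitors of CDKs) were counted by the same rule. Against hiPSCs, 44 of 70 tested were lower and 4 higher at day 70, and 55 of 71 lower and 2 higher at day 150. In the cultures, 54 were lower and 2 higher than in hiPSCs at P1, and 55 lower and 1 higher at P5. Of all genes tested, 21.1% were lower than in hiPSCs at day 70, 29% at day 150, 29.7% at P1 and 29.3% at P5. The shares of all genes that were higher were 22.5%, 29.8%, 26.1% and 26.9% in the same order. Against D150-ROs, 12 of 69 were higher and 6 lower at P1, and 7 were higher and 10 lower at P5, with medians of 0.02 and -0.14. Over all genes, 20% were higher and 24.1% lower at P1, and 20.8% higher and 23.9% lower at P5. The shares of the further genes against D150-ROs were thus all below the background. The largest falls were in ORC1 (origin recognition complex) from hiPSCs to D70-ROs (-2.93), P1 (-5.48) and P5 (-5.85), and in TK1 (thymidine kinase) from hiPSCs to D150-ROs (-5.82) and from D70-ROs to D150-ROs (-3.12). CENPE, a kinetochore motor, had the largest rise between the organoid stages, 1.117 on the log2 scale, at levels of at most 1.56 FPKM. E2F8, a repressive E2F factor, had the largest fall from D150-ROs to P5, -2.41. E2F8 was at most 0.35 FPKM at P5, ORC1 at most 0.61 in the cultures and CENPE at most 0.85 in D70-ROs. In these comparisons each passed the filter through the other group only, so that it had to differ.

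The 7 genes of CDK inhibitors held the largest rises in the cultures among the genes that are not members. CDKN1A (p21) was 14.0, 12.2 and 12.5 FPKM in hiPSCs, 131, 184 and 111 in the day 70 organoids, and 36.0, 39.1 and 39.7 in those of day 150. In the cultures it was 284, 290 and 286 FPKM at P1 and 322, 330 and 324 at P5, above every other library. Against D150-ROs the log2 fold change of CDKN1A was 3.55 ± 0.05 and 3.79 ± 0.06 (SE, edgeR adjusted p = 7.73e-18 and 2.23e-18). CDKN2A (p16 and ARF) was at most 0.57 FPKM in the 9 hiPSC and organoid libraries and between 27.8 and 37.4 in the cultures. Its fitted log2 fold changes against D150-ROs, 7.45 and 7.51, and against D70-ROs, 7.16 and 7.22, rest on few counts in the organoids. CDKN2A passed the filter there through the cultures only. CDKN2B (p15), its neighbour, was at most 0.05 FPKM in hiPSCs against 1.21 in organoids, and was 35.2, 35.5 and 34.1 at P1 and 22.8, 24.1 and 22.6 at P5.

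The other inhibitors were highest in the organoids. CDKN1B (p27) was between 51.9 and 55.4 FPKM in D150-ROs and between 7.98 and 12.9 in the cultures (log2 fold change -1.53 and -1.88). CDKN1C (p57) was between 32.6 and 42.9 FPKM in D70-ROs and at most 2.04 in the cultures, the largest called fall from D70-ROs among the genes that are not members (-4.29 at P1 and -3.74 at P5). CDKN2C (p18) rose from at most 0.07 FPKM in hiPSCs to between 5.89 and 6.30 in D70-ROs, and CDKN2D (p19) from at most 2.21 to between 14.9 and 15.7. The cultures thus combined the highest CDKN1A, CDKN2A, CDKN2B and CDK6 with less CDKN1B and CDKN1C than the organoids, while the mitotic members stayed well below hiPSCs.

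**Figure D5:**
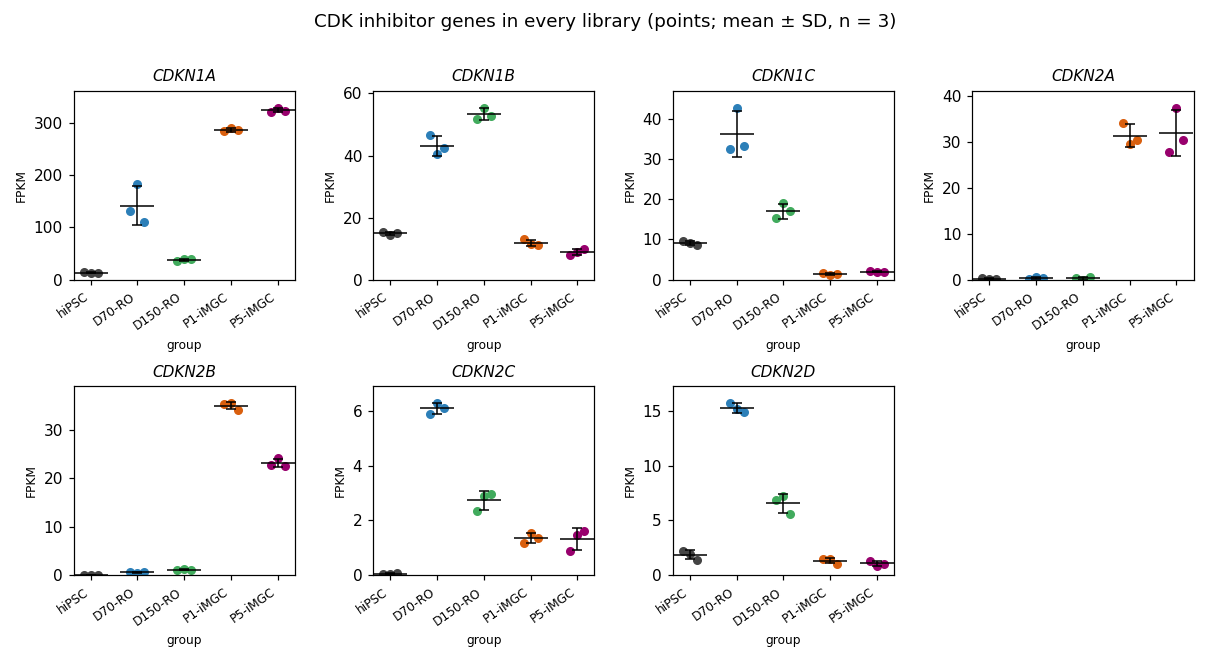
FPKM of the 7 CDK inhibitor genes in every library (points; mean ± SD, n = 3), each panel with its own axis from 0. CDKN1A, CDKN2A and CDKN2B are highest in the 6 culture libraries, and CDKN1B, CDKN1C, CDKN2C and CDKN2D in the organoids.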

How the data were processed

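Poly(A) RNA was sequenced in 15 libraries, 3 for each of 5 groups. Per the labels and methods, the authors used HISAT2 for mapping, StringTie for assembly and RSEM for quantification, and deposited expected counts, which are not normalized, and FPKM per library. The submitters' processing notes also name DESeq2. Versions, the genome build and the strand of counting are not given in the sources used here. The authors' own fold and p columns were not used, and neither were 6 culture columns that name no passage.

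Expected counts were rounded, and genes with at least 1 FPKM in at least 3 of the compared libraries were tested with edgeR 4.0.16 (R 4.3.3, TMM scaling, quasi-likelihood test, Benjamini-Hochberg adjustment over all genes tested). A gene was called at an adjusted p under 0.05 and at least 2-fold. The groups of 2 tables were combined as counts and scaled in 1 fit. Alternatives were DESeq2 1.42.0, upper-quartile factors, other filters, all libraries in 1 fit, a replicate block, a test against 2-fold, limma 3.58.1 on log2(FPKM + 1) or log2(FPKM + 0.1), removal of the length trend, and leaving out each library. In simulated counts for P1 against D150-ROs (12896 genes, 200 changed 4-fold), edgeR recovered 100% of the changed genes. In the other comparisons edgeR recovered at least 97.5%. Recovery of changes near the 2-fold limit was not tested. The methods give 3 independent experiments per group, while the series' design text gives another number for some groups, so p-values measure the spread between these libraries, which may in part be technical.

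Exon overlap came from GENCODE 29 and promoters from RefSeq. The members and all gene lists were chosen with earlier results of these data known. Every member was named, with full statistics for 13 members fixed by name (MKI67, PCNA, MCM2, CCND1, CCND2, CCND3, CDK6, CCNE1, RB1, E2F1, CDK1, CCNB1 and FOXM1) and for the members with the largest rise and fall of a comparison, and, of other cell cycle genes, those with the largest rise and fall of a comparison and the CDK inhibitors were named. E2F3 was added beside E2F1 and E2F2.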

Additional observations from a re-analysis of the deposited data

How the results depend on the processing

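Over all comparisons, DESeq2 lost 1 and gained 0 of the members' calls, upper-quartile factors lost 2 and gained 12, the test against 2-fold lost 25, limma on FPKM lost 25 and gained 23 (pseudocount 1) or lost 22 and gained 27 (0.1), removing the length trend lost 6 and gained 19, and none of these settings turned a call to the other direction. The labels do not say whether same-numbered libraries share an experiment. Correlations of their deviations from the group means ran from -0.06 to 0.35, which with 3 libraries per group cannot settle it. With a replicate block 1 call was lost, KIF11 (33 lower in place of 34 between D150-ROs and D70-ROs), and no other.

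Against D150-ROs, members called higher at P1 were 6 by the test against 2-fold and 2 by limma with either pseudocount, and those lower were 8 and 9. At P5 they were 2 higher and 9 lower with either pseudocount. Limma with 0.1 gave 1 higher between D150-ROs and D70-ROs and 1 lower at P5 against P1. Against D70-ROs, removing the length trend gave 2 higher at P1 (CCNE1 added) and 2 at P5. Among all genes, the share of higher among called genes against D150-ROs was 45.4% at P1 and 46.5% at P5 by edgeR and 22.9% and 22.4% on log2(FPKM + 1).

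Leaving out 1 library gave these ranges of members higher and lower: 2 to 3 and 26 to 30 (D70-ROs against hiPSCs), 3 to 3 and 38 to 39 (D150-ROs against hiPSCs), 0 to 1 and 33 to 35 (D150-ROs against D70-ROs), 3 to 3 and 36 to 37 (P1 against hiPSCs), 3 to 3 and 34 to 36 (P5 against hiPSCs), 1 to 2 and 25 to 28 (P1 against D70-ROs), 1 to 2 and 27 to 31 (P5 against D70-ROs), 6 to 13 and 4 to 4 (P1 against D150-ROs), 5 to 8 and 2 to 5 (P5 against D150-ROs), and 0 to 0 and 0 to 1 (P5 against P1). Counts that moved by over 1.5 times were 6 higher at P1 without D150-RO replicate 1, and 2 lower at P5 without D150-RO replicate 1 or 3, where GINS2 and CCNE2 failed the filter. They also moved by 1 to 1 or 2 without D70-RO replicate 3, P1 replicate 1 or P5 replicate 3. What set the other moves was not tested.

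Log2 fold changes printed here for members that turned sign, none of them called on the other side, were these, with limma values for pseudocounts 1 and 0.1. At P1 against D150-ROs they were MKI67 (-0.32 and -0.38, -0.035 to 0.366 leaving out 1 library, the lowest without D150-RO replicate 1), PCNA (-0.36 and -0.36), RB1 (-0.24 and -0.25), CDK1 (-0.24 and -0.27), MCM6 (-0.001 and -0.001), CCNA2 (-0.40 and -0.46, -0.034 to 0.245 leaving out 1 library) and MYBL2 (-0.39 and -0.50, -0.035 to 0.269). At P5 against D150-ROs they were PCNA (-0.56 and -0.58, -0.10 without the length trend, -0.114 to 0.201 leaving out 1 library), MCM6 (-0.29 and -0.31), MKI67 (0.22 without the length trend, -0.325 to 0.018) and CDK1 (0.010 with no filter and with filterByExpr, -0.245 to 0.116). CCND1 turned against D70-ROs (-0.19 and -0.19 at P1, -0.029 and -0.029 at P5), CDK6 in D150-ROs with the length trend removed (-0.10 against hiPSCs and -0.10 against D70-ROs), and CENPF at P1 against hiPSCs without P1 replicate 2 or 3 (-0.407 to 0.048). In D70-ROs against hiPSCs, RRM1 was 0.066 by upper-quartile factors, 0.12 and 0.12 by limma and -0.190 to 0.102 leaving out 1 library, and TYMS -0.015 by DESeq2, -0.003 with no filter or filterByExpr, -0.017 in the fit of all libraries and -0.062 to 0.141. Depth limits E2F2 in the cultures, at 12 and 5 counts.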
